A study of Drosophila melanogaster with 8 samples.

Results

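The comparison described here sets heads of male Drosophila melanogaster taken at day 14, after the drugs had been withdrawn, against heads of a parallel control kept on normal food. It comprises 4 of the 8 arrays of the study, chosen by title; the other 4 arrays compare drug-fed and control heads at day 10, the end of drug feeding. All flies were unmated males of the Oregon-R wild type, 3 to 4 days old at the start. Day 14 flies received pentylenetetrazole at 8 mg/ml of food for 7 days, then gabapentin, as the titles and treatment text name it, at 16 mg/ml for 3 days, and then normal food for 4 days. Day 10 flies received pentylenetetrazole at 8 mg/ml for 7 days and gabapentin at 16 mg/ml for 3 days, with no normal food afterwards. Control flies were kept on normal food and moved to new vials on the same days. In the feeding order that closes that text, however, day 14 replicates 1, 2 and 3 have ETH, an unexplained abbreviation, in the place of gabapentin, and replicate 4 has gabapentin. The labels of those 3 replicates therefore disagree with themselves on the second drug. Each array compared RNA of 1 pool of treated heads with RNA of 1 pool of control heads, labelled in different colours, on the same spotted cDNA array.

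Pentylenetetrazole is a convulsant that blocks GABA-A receptors, the chloride channels through which the transmitter GABA silences neurons. Gabapentin is an anticonvulsant named after GABA that binds an auxiliary subunit of voltage-gated calcium channels. Foreign compounds in food are cleared in insects by cytochrome P450 enzymes, glutathione S-transferases and UDP-glucuronosyl transferases, and the head holds brain, compound eyes, fat body and muscle, so its RNA reports on all of these tissues. In RNA from whole heads, fewer cells of a type and less RNA per cell cannot be told apart.

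Every value below is a log2 ratio of treated over control RNA, with each array's median set to 0, so that 1 stands for a doubling in treated heads and -1 for a doubling in control heads. Treated heads were labelled with the dye Cy5 on replicates 1 and 2, and with Cy3 on replicates 3 and 4. The sign was read as Cy5 over Cy3 and turned on the last 2 arrays, whose titles mark them as dye swaps. Neither the numerator nor whether swapped arrays had been turned before deposit is given in the sources used here. With Cy3 as the numerator every sign below turns round, and values with the deposited signs left as they are follow the main genes and groups.

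The 4 day 14 arrays held 6628, 10812, 14095 and 13343 values for replicates 1 to 4, of 27648 spotted features. Across genes and features measured on both arrays, the ratios of replicates 3 and 4 had a Pearson correlation of 0.42. Replicate 1 correlated with replicate 3 at 0.28 and with replicate 4 at 0.12. Replicate 2 stood apart from the other 3 arrays, with correlations of -0.02 to replicate 1, -0.22 to replicate 3 and -0.23 to replicate 4. With the deposited signs left as they are, replicate 2 correlated at 0.22 with replicate 3 and at 0.23 with replicate 4, and replicate 1 then stood at -0.28 and -0.12 to those arrays. Paired spots of the same feature on 1 array had Spearman correlations from 0.56 to 0.83, so the disagreement lay between arrays more than between spots. Array ratios carry no level per tissue, and the head origin could be checked only through which genes gave a value. Of the photoreceptor and phototransduction genes, 9 of 14 spotted gave at least 3 values, among them the phototransduction channels trp and trpl, while Arr2 and chp gave none. Over all named genes 2586 of 6793 did so, with 7 of 19 glial markers and 9 of 13 muscle genes. These counts therefore do not establish the head origin.

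No gene or feature reached an adjusted p of 0.05 at day 14. Of 6142 tested in limma's moderated test with Benjamini-Hochberg adjustment, 2586 were named genes, and 0 passed (0%), with a smallest adjusted p of 0.391. At an unadjusted p under 0.05 there were 282, or 4.59% of those tested, of which 113 (1.84%) were higher and 169 (2.75%) lower in treated heads. Mean ratios were small, with a median of 0.01, a central 95% between -0.39 and 0.35 and a median standard error of 0.16. Among named genes, 8 had a mean above 0.5 and 24 a mean below -0.5, and none lay beyond 1 in either direction. The count rested on how arrays were weighted. With array weights estimated by limma, which gave replicates 3 and 4 weights of 3.53 and 1.92 and replicates 1 and 2 weights of 0.67 and 0.75, 80 genes and features passed, 66 of them lower. The pair of Cy3 arrays alone, replicates 3 and 4, gave 530 past the threshold, 203 higher and 327 lower, and the pair of Cy5 arrays alone gave 0. Without replicate 2 the fit gave 0 past the threshold and 457 at an unadjusted p under 0.05. Both of the larger counts, 80 and 530, went to 0 when ratios were also centred along the order of spots in the table, a setting added after seeing the data.

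The gene with the smallest p was Cyp313a1, a cytochrome P450 whose substrate is not described here. Its log2 ratios on replicates 1 to 4 were -0.94, -0.92, -0.80 and -0.69. The mean of -0.84 ± 0.14 (SE, n = 4) corresponds to 1.79 times more RNA in control than in treated heads (limma adjusted p = 0.391). All 4 arrays were low and close together, which a choice by smallest p favours. The gene is on chromosome 3R, and its 2 spots each read below -0.57 on every array. It passed at a limma adjusted p of 0.0288 when arrays were scaled to a common spread and at 0.0291 with array weights. Centring along the order of spots took its mean to -0.17, where its run of 24 features held 4 values, 2 of them its own spots, and to -0.82 when only runs with at least 8 values were centred. With the deposited signs left as they are its mean was -0.09. Cyp313a1 had the same sign at day 10, with -1.05, -0.31, -0.83 and -0.73.

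**Figure D1:**
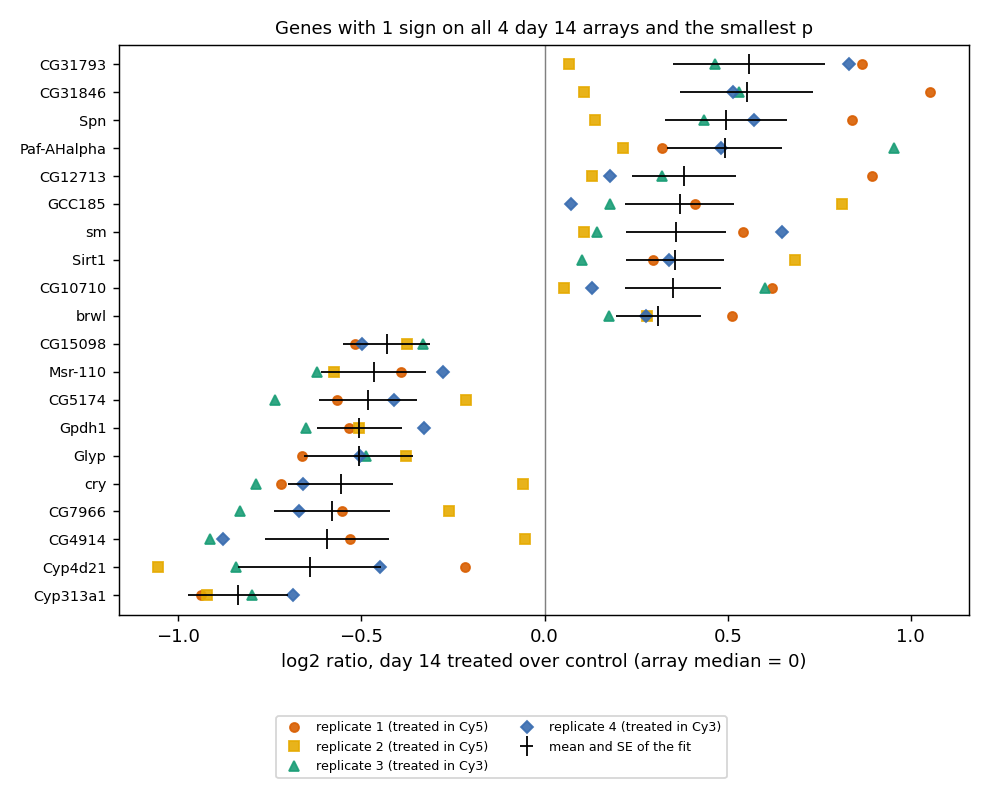
Log2 ratios of treated over control heads at day 14 for the 20 named genes with the smallest p among those with 1 sign on all 4 arrays, 10 per direction. Each symbol is 1 array, the black mark the mean and the bar its SE from the fit; Cyp313a1 at the bottom has all 4 arrays between -0.94 and -0.69, whereas replicate 2 lies nearest to 0 for cry, CG4914 and most of the genes above 0.

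Of 1451 named genes with values on all 4 arrays, 159 (11%) were below 0 on every array and 119 (8.2%) above 0 on every array; over everything tested, 12.2% were below 0 and 10.8% above 0 on every measured array. The 10 lower genes chosen by p included Gpdh1 and Glyp. Gpdh1, the glycerol-3-phosphate dehydrogenase that links glycolysis to lipid synthesis and the glycerophosphate shuttle, had ratios of -0.53, -0.50, -0.65 and -0.33. Glyp, glycogen phosphorylase, had ratios of -0.66, -0.38, -0.49 and -0.50. For both genes all 4 arrays lay close together and at or below -0.33, which the choice by 1 sign and small p favours. Means were -0.51 ± 0.12 for Gpdh1 (unadjusted p = 0.001) and -0.51 ± 0.15 for Glyp (unadjusted p = 0.0062), each with a limma adjusted p of 0.979. With the deposited signs the means were -0.01 for both genes, and with ratios centred along the order of spots they were -0.25 for Gpdh1 and -0.41 for Glyp. When only runs with at least 8 values were centred, they were -0.31 for Gpdh1 and -0.51 for Glyp.

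The blue-light receptor cry, which lets light reset the circadian clock, had ratios of -0.72, -0.06, -0.79 and -0.66, a mean of -0.56 ± 0.14. Here 3 arrays lay close together and replicate 2 was near 0. Cyp4d21, a P450 also known as sxe1 and expressed in a sex-biased way in fly heads, had ratios of -0.22, -1.06, -0.84 and -0.45, a mean of -0.64 ± 0.20, and replicate 2 was the lowest. The remaining lower genes of this group were CG7966, CG4914, CG5174, CG15098 and Msr-110, with means from -0.59 to -0.43. Under the deposited signs cry had a mean of 0.17 and Cyp4d21 one of 0.00, and the 10 lower genes had means from -0.09 to 0.30. Centred along the order of spots, the 10 had means from -0.43 to -0.17, and from -0.82 to -0.19 when only runs with at least 8 values were centred.

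Above 0 on all 4 arrays, the largest means belonged to CG31793 at 0.56 ± 0.21 and CG31846 at 0.55 ± 0.18. Spn, spinophilin, a scaffold that brings a protein phosphatase to synapses, had ratios of 0.84, 0.14, 0.43 and 0.57, a mean of 0.50 ± 0.17. Paf-AHalpha, a subunit of platelet-activating factor acetylhydrolase, had ratios of 0.32, 0.21, 0.95 and 0.48, a mean of 0.49 ± 0.16. Replicate 2 was the lowest array for both. Sirt1, an NAD-dependent protein deacetylase, had ratios of 0.30, 0.68, 0.10 and 0.34, with replicate 2 the highest and a mean of 0.36 ± 0.13. On replicate 2 its 2 spots read 0.014 and 1.356, so the high value came from 1 spot. The RNA-binding protein gene sm averaged 0.36 ± 0.14 and the golgin gene GCC185, whose protein tethers vesicles at the Golgi, 0.37 ± 0.15. CG12713, CG10710 and brwl lay between 0.31 and 0.38. None of these 10 had a limma adjusted p under 0.979. Their means lay between -0.23 and 0.24 with the deposited signs, and between 0.14 and 0.54 with ratios centred along the order of spots.

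Of 69 spotted cytochrome P450 genes, whose enzymes oxidise foreign compounds, 25 were measured. Of these, 17 had a mean below 0, against 48.9% of everything tested, and 11 were below 0 on each measured array, against 12.2%. At an unadjusted p under 0.05, 6 were lower, against 2.75% of everything tested, and 0 higher, against 1.84%. None passed after adjustment. The median over the 25 was -0.14, against 0.01 over everything tested, and the median was below 0 on each array, at -0.18, -0.10, -0.14 and -0.21. After Cyp313a1 and Cyp4d21, the lowest means were those of Cyp9f2 at -0.55 ± 0.17, Cyp4e2 at -0.53 ± 0.17, Cyp28d1 at -0.47 ± 0.15 and Cyp4ac1 at -0.33 ± 0.15. Cyp28d1 had ratios of -0.58, -0.22, -0.40 and -0.69, so that all arrays were low. Cyp4e2 had ratios of -1.15, -0.09, -0.58 and -0.30, and its mean rested mainly on replicate 1. At the other end stood Cyp4d8 at 0.25 ± 0.20 and Cyp6a19 at 0.20 ± 0.19. Under the deposited signs the median of the 25 was 0.01 with 11 below 0, and with ratios centred along the order of spots it was -0.03 with 15 below 0. Without replicate 2 the median was -0.19 and without replicate 4 it was -0.09.

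**Figure D2:**
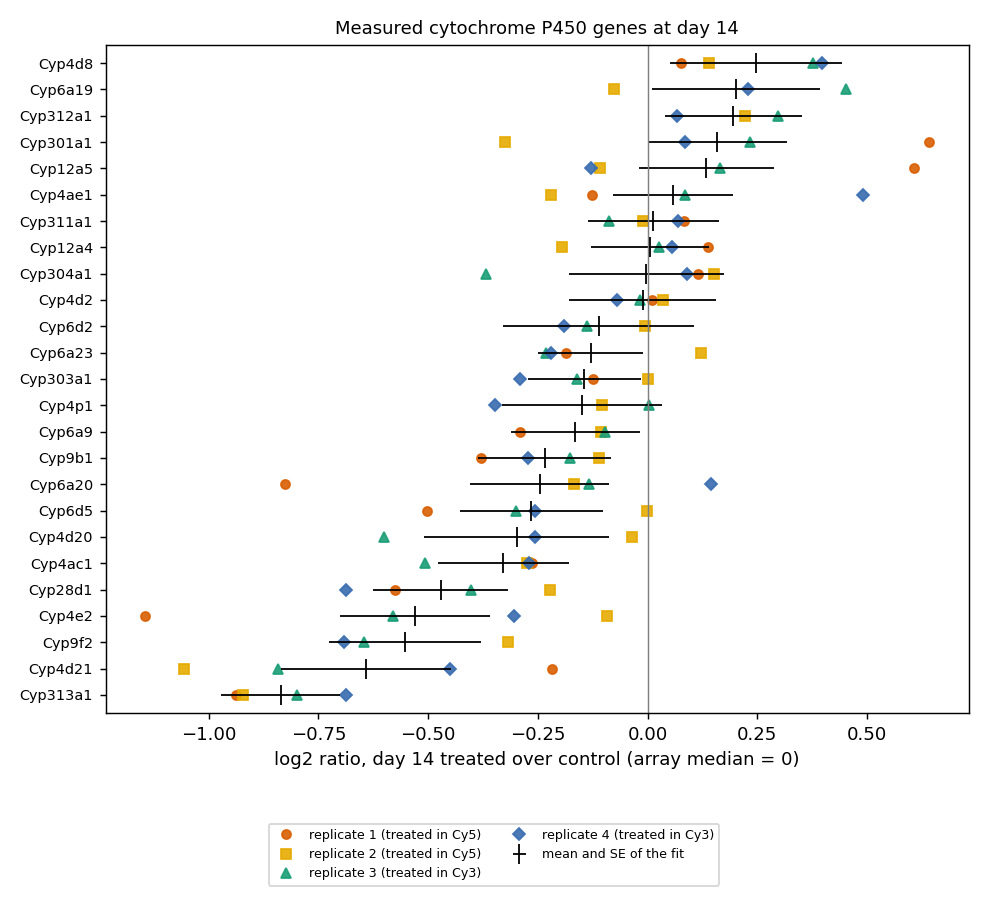
Log2 ratios of treated over control heads at day 14 for the 25 measured cytochrome P450 genes, ordered by mean; symbols are single arrays, black marks and bars the mean and SE of the fit. The 6 lowest genes, from Cyp313a1 to Cyp4ac1, have every measured array below 0, and replicate 2 lies to the right of the mean in 4 of them.

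Glutathione S-transferases and UDP-glucuronosyl transferases conjugate foreign compounds. Of 9 measured glutathione S-transferases, 7 were below 0, the median was -0.10 and 1, GstE12, was below 0 on all 4 arrays. For this and each later group, the shares over everything tested were 48.9% below 0 and 12.2% below 0 on every measured array. At a limma unadjusted p under 0.05 they were 2.75% lower and 1.84% higher. GstE12 had ratios of -0.01, -0.02, -0.44 and -0.49, so its mean of -0.24 ± 0.14 rested on the Cy3 arrays. Of the 9, 4 were below 0 with the deposited signs, with a median of 0.06. The 2 measured UDP-glucuronosyl transferases of 12 spotted, Ugt301D1 and Ugt37E1, had means of -0.09 and -0.02. All 8 measured antioxidant genes had a mean below 0, with a median of -0.16 and array medians of -0.17, 0.12, -0.20 and -0.12. Grx1, a glutaredoxin, was below 0 on every array at -0.56, -0.28, -0.06 and -0.09, while Gclm, the modifier subunit of the enzyme that starts glutathione synthesis, had -0.17, 0.08, -0.74 and -0.39. Under the deposited signs 4 of the 8 antioxidant genes were below 0, with a median of 0.05. None of the antioxidant or glutathione S-transferase genes had an unadjusted p under 0.05.

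Genes of central energy metabolism had medians below 0 on replicates 1, 3 and 4 and near 0 on replicate 2. Of 12 measured glycolysis and glycogen genes, 10 had a mean below 0, 4 were below 0 on every array and 2, Gpdh1 and Glyp, were lower at an unadjusted p under 0.05. Over everything tested these shares were 48.9%, 12.2% and 2.75%. Their median was -0.17, with array medians of -0.16, -0.01, -0.20 and -0.22. Besides Gpdh1 and Glyp, Ald1, the aldolase of glycolysis, was below 0 on every array at -0.14, -0.24, -0.64 and -0.28, and Pgk, phosphoglycerate kinase, at -0.06, -0.04, -0.14 and -0.12. The first enzyme of the pathway is hexokinase, and its genes fell on both sides of 0. Hex-A averaged 0.11 ± 0.15, at -0.12, 0.11, 0.14 and 0.31. Hex-C averaged -0.03 ± 0.20, at 0.272, -0.165, -0.065 and -0.158. With the deposited signs the median of this group was 0.06, with 5 of the 12 below 0, and with ratios centred along the order of spots it was -0.08.

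The list for the TCA cycle and pyruvate dehydrogenase had 8 measured genes: Idh3a, Mdh1, Men-b, Ogdh, Scsalpha1, ScsbetaA, SdhC and SdhD. None encodes a pyruvate dehydrogenase subunit, and Mdh1 and Men-b are not enzymes of the cycle itself. Of the 8, 6 were below 0, 4 on every measured array, and 3 were lower at a limma unadjusted p under 0.05. Over everything tested these shares were 48.9%, 12.2% and 2.75%. Mdh1 and Men-b were among the 4, and Men-b among the 3. The median of the 8, -0.23, was the lowest of the groups with at least 5 measured members. It was not computed without Mdh1 and Men-b. The array medians were -0.28, 0.04, -0.30 and -0.40. Scsalpha1, the alpha subunit of succinyl-CoA synthetase, had ratios of -0.33, -0.22, -0.56 and -0.68, a mean of -0.45 ± 0.17. Its partner subunit ScsbetaA, without a value on replicate 4, had -0.28, -0.05 and -0.85. Men-b, a mitochondrial malic enzyme, had -0.37, -0.11, -0.34 and -0.40, a mean of -0.31 ± 0.13. In these 3 genes replicate 2 was the array nearest to 0. Mdh1, the cytosolic malate dehydrogenase, averaged -0.51 ± 0.37 and missed replicate 2. Without replicate 2 the median of the 8 was -0.31, and with the deposited signs it was 0.17, with 1 below 0.

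**Figure D3:**
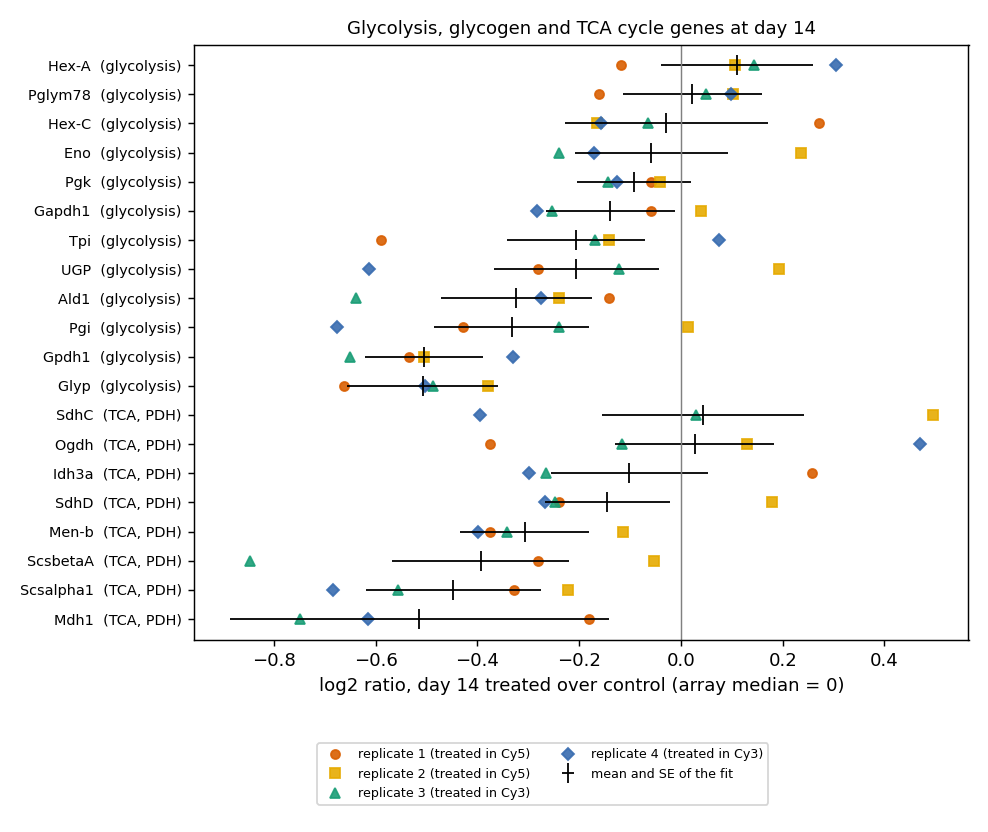
Log2 ratios of treated over control heads at day 14 for 12 glycolysis and glycogen genes (upper block) and the 8 measured genes of the TCA cycle and pyruvate dehydrogenase list (lower block). None of these 8 encodes a pyruvate dehydrogenase subunit. Each array has 1 symbol, and the mean and SE of the fit are in black. Gpdh1 and Glyp have all 4 arrays between -0.66 and -0.33, and replicate 2 lies above the other arrays in Pgi, UGP, Eno and SdhC.

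The subunits of oxidative phosphorylation were mostly below 0 but close to it. Of 26 measured, 20 were below 0, against 48.9% of everything tested, and 3 were below 0 on every measured array, against 12.2%. The median was -0.08, with array medians of -0.09, 0.07, -0.13 and -0.13. ND-20, a complex I subunit, averaged -0.28 ± 0.13 and COX7A, a cytochrome c oxidase subunit, 0.29 ± 0.13, and 0 of the 26 had an unadjusted p under 0.05. Under the deposited signs 7 of the 26 were below 0, with a median of 0.11. Mitochondrial ribosomal proteins were split, with 10 of 23 below 0 and a median of 0.05; mRpL37 stood at -0.31 ± 0.15 and mRpS31 at 0.36 ± 0.19. In the head fat body and lipid group, 13 of 20 were below 0, with a median of -0.05. There FASN3, a fatty acid synthase of the oenocytes, averaged 0.41 ± 0.17 on 3 arrays, at 0.56, 0.44 and 0.23, and FASN1, the fatty acid synthase of the fat body, -0.37 ± 0.19. Replicate 2 had no FASN3 value.

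The direct targets of the drugs were barely measured. Of 5 spotted genes for GABA synthesis, uptake and receptors, only Gad1, the glutamate decarboxylase that makes GABA, had at least 3 day 14 values, at -0.15, 0.28, -0.15 and 0.11. Its arrays fell on both sides of 0, with a mean of 0.02 ± 0.17. Of 3 spotted calcium channel subunits, only stj was measured. It encodes the fly counterpart of the auxiliary subunit that gabapentin binds in mammals, and had 0.00, 0.20 and -0.10 on replicates 2 to 4, a mean of 0.03 ± 0.13. No difference was detectable for either gene at this number of arrays. Lcch3, a GABA-A receptor subunit, had 0.25 and 0.14 on replicates 3 and 4 alone, and Gat, the GABA transporter, 0.01 and 0.13 on replicates 2 and 3. These 2 had too few values to test.

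The other neuronal groups had array medians of both signs. The monoamine group had the highest median of the groups with at least 5 measured members, 0.16 over 7 genes, 5 of them above 0, with array medians of 0.43, -0.05, 0.10 and 0.22. DopEcR, a receptor for dopamine and ecdysone, was above 0 on every array at 0.93, 0.07, 0.10 and 0.25, and its mean of 0.34 ± 0.17 rested mainly on replicate 1. The serotonin receptor genes 5-HT2A and 5-HT1A averaged 0.34 ± 0.17 and 0.28 ± 0.20, both negative on replicate 2. The enzyme gene speck, whose product acetylates monoamines, was below 0 on every array with a mean of -0.25 ± 0.19. The group's median with the deposited signs was -0.11.

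Among 6 glutamate transmission genes, 4 were below 0 with a median of -0.10, and Gs1, a glutamine synthetase, had a mean of -0.13 ± 0.20. Of 6 synaptic vesicle genes, 4 were below 0 with a median of -0.04, among them shi, dynamin, at -0.22 ± 0.13, and nwk at -0.03 ± 0.15. The 5 sodium and potassium channel genes had a median of 0.03, the 3 cholinergic genes 0.05 and the 3 cAMP signalling genes -0.06. None of these had a member at an unadjusted p under 0.05. Of 8 neuropeptide genes, 5 were below 0 with a median of -0.07. Ilp2, an insulin-like peptide of brain neurosecretory cells, had -0.32, -0.23 and -0.40 on replicates 1, 3 and 4, and Mip, myoinhibiting peptide, averaged -0.16 ± 0.12. The 2 measured pan-neuronal markers, Rbp9 and nSyb, had means of -0.06 ± 0.20 and -0.33 ± 0.28.

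The photoreceptor group had a median of -0.16. Of its 9 genes, 6 were below 0 and 3 below 0 on every measured array, against 48.9% and 12.2% of everything tested. The array medians were 0.06, 0.01, -0.26 and -0.14, so that the shift was on the arrays with treated RNA in Cy3. The phototransduction cation channel trp had ratios of 0.00, -0.41, -0.59 and -0.69. Its mean was -0.42 ± 0.14 (limma unadjusted p = 0.012, limma adjusted p = 0.979). The gene inaC, for the eye-specific protein kinase C, had ratios of -0.45, -0.32, -0.26 and -0.14. Arr1, the arrestin, had 0.02, 0.34, -0.71 and -1.09, so its Cy5 arrays lay above 0 and its Cy3 arrays below. The group's median was 0.14 and trp's mean 0.22 with the deposited signs. Of 4 circadian clock genes, cry was the only one with a mean below 0, and jet averaged 0.18 ± 0.14. Pdp1 averaged 0.45 ± 0.35, at 1.65, -0.37 and 0.05 on replicates 1 to 3, so its mean rested on replicate 1. Of 7 glial markers, 6 were below 0 with a median of -0.07, among them the astrocyte marker alrm at -0.36 ± 0.20.

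Cytosolic ribosomal proteins had medians below 0 on the Cy3 arrays alone. Of the 14 measured, 13 had a mean below 0, against 48.9% of everything tested. Their median was -0.13, with array medians of 0.01, 0.07, -0.28 and -0.26. RpL34a was below 0 on every array with a mean of -0.11 ± 0.12, RpL29 above 0 on every array at 0.09 ± 0.11, and 1 member, RpS28b, had an unadjusted p under 0.05, at -0.38 ± 0.15. The median of the ribosomal proteins was 0.21 with the deposited signs. Of 14 proteasome subunits, 9 were below 0 and 4 below 0 on every measured array, against 48.9% and 12.2% of everything tested. Their median was -0.10, or -0.20 without replicate 2. The array medians were -0.09, 0.00, -0.12 and -0.17, and with the deposited signs 4 of the 14 were below 0, with a median of 0.15. Prosbeta7, a core subunit, had -0.46, -0.14, -0.36 and -0.27, a mean of -0.31 ± 0.12, and was the 1 member with an unadjusted p under 0.05. The ATPase gene Rpt4R averaged -0.25 ± 0.17.

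Translation factors had 12 of 19 below 0, with a median of -0.05 and array medians of -0.03, 0.00, -0.15 and -0.03. The initiation factor subunit eIF3b, measured on 3 arrays, averaged -0.51 ± 0.19 and eIF2Balpha 0.17 ± 0.12. Of 9 chaperones, 6 were below 0 with a median of -0.10 and array medians of -0.30, 0.11, -0.07 and -0.13. Both groups had a median of 0.09 with the deposited signs. Hsp60C, a chaperonin gene, had -0.16, -1.03 and -1.40 on replicates 1, 3 and 4. Its mean of -0.86 ± 0.25 was the lowest of all named genes and rested on the Cy3 arrays. Vesicle and endosome trafficking genes were balanced, with 12 of 23 below 0 and a median of -0.01; Snx17, a sorting nexin, averaged 0.41 ± 0.20.

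**Figure D4:**
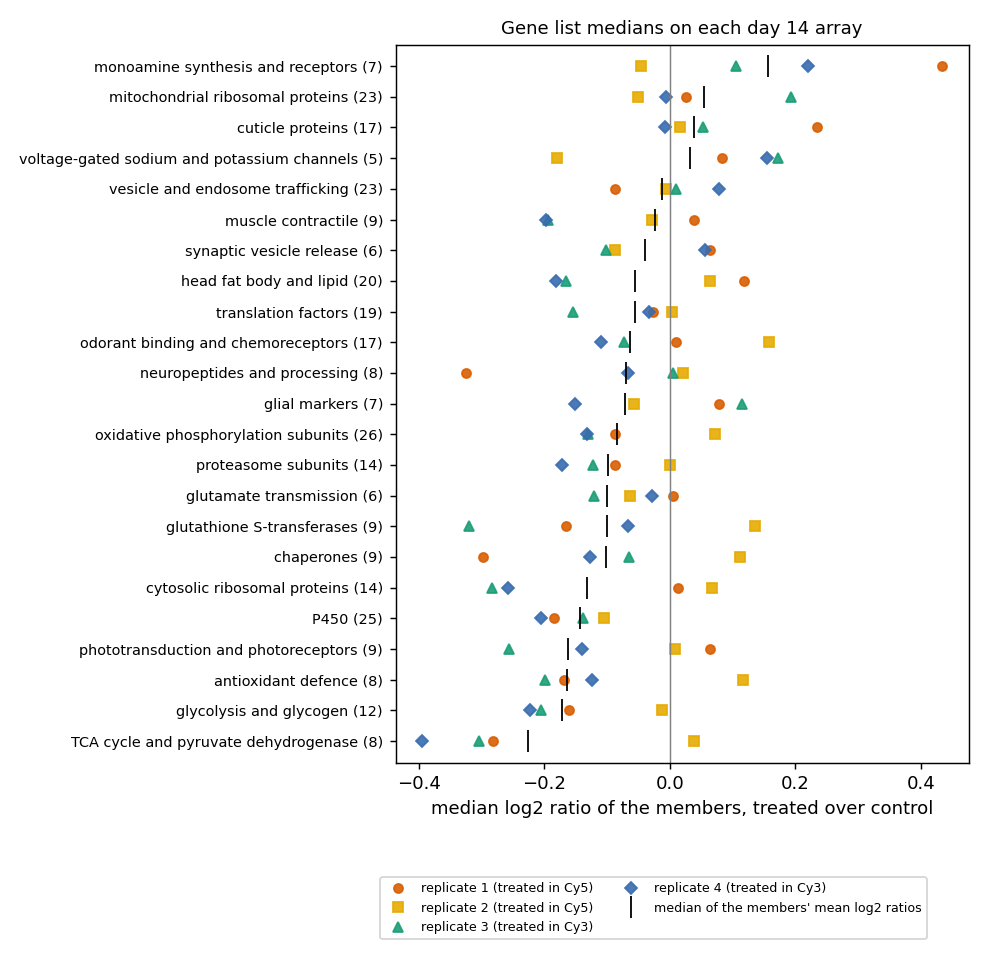
Median log2 ratio of the members of 23 gene groups on each day 14 array, with the number of measured members in brackets and the black bar at the median of the members' means. The P450 group has all 4 array medians between -0.21 and -0.10, whereas for the TCA cycle and antioxidant groups replicate 2 lies above 0 and the other 3 arrays below.

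Markers of other tissues gave few values or lay near 0. Of 9 muscle genes, 5 were below 0 with a median of -0.02, and TpnC4, a troponin C, averaged 0.05 ± 0.15. Of 17 cuticle proteins, 10 were above 0 with a median of 0.04, among them TwdlF at 0.31 ± 0.14 and Cpr76Bd at 0.19 ± 0.13. Of 17 odorant-binding and chemoreceptor genes, 12 were below 0 with a median of -0.06, Obp19d at -0.15 ± 0.15 among them. The 4 immune genes had a median of -0.14. Drsl5, a drosomycin-like gene, averaged -0.30 ± 0.14, and Drs, the antifungal peptide drosomycin, 0.12 ± 0.23 with replicate 1 at 1.14 and the other 3 arrays below 0. Of 8 haemocyte markers only Col4a1 was measured, at 0.08 ± 0.16. Of 17 markers of testis and male accessory gland 3 were measured, between -0.24 and 0.07, and the 4 DNA damage response genes had a median of 0.08.

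The difference between day 14 and day 10 was tested as a contrast in the same fit, with the ratio at day 10 subtracted from the ratio at day 14. No gene or feature passed: 0 of 5187 (0%) had an adjusted p under 0.05 and the smallest adjusted p was 1. At an unadjusted p under 0.05 there were 129 (2.49%), 67 of them higher (1.29%) and 62 lower (1.2%) at day 14. Across the 5187, the mean ratios of the 2 days had a Pearson correlation of 0.20 and a Spearman correlation of 0.21, over genes that share arrays and are not independent. The days had separate control pools. At day 10, replicates 1 and 2, with treated RNA in Cy5, correlated at 0.40 (Pearson). Replicates 3 and 4, with treated RNA in Cy3, correlated at 0.16. Replicate 4 stood at -0.32 and -0.39 to replicates 1 and 2, and replicate 3 at 0.01 and -0.01. With the deposited signs replicate 4 stood at 0.32 and 0.39 to them. Day 10 means and all day differences therefore average arrays that disagree.

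COX4, a subunit of cytochrome c oxidase, had the largest difference towards lower values at day 14 among the genes named for this contrast. Its ratios were -0.03, 0.08, -0.39 and -0.56 at day 14, against 1.09, 0.52, 0.83 and 0.26 at day 10. The difference was -0.90 ± 0.23 (limma unadjusted p = 0.0022). Men-b had the values given above at day 14, against 0.34, -0.10, 0.45 and 0.20 at day 10. The difference was -0.53 ± 0.18 (limma unadjusted p = 0.014). Replicate 2 of Men-b stood at -0.11 on day 14 and at -0.10 on day 10. CG7065 differed by -0.72 ± 0.21 and CG1703 by -0.60 ± 0.21, both of them below 0 on average at day 14 and above 0 at day 10. All of these genes were chosen by small p, which favours arrays of the days that lie apart.

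In the other direction, mRpS34, a mitochondrial ribosomal protein, had ratios of 0.84, 0.04, -0.40 and 0.03 at day 14, against -0.68, -0.50, -0.49 and -1.02 at day 10. The difference was 0.80 ± 0.26 (limma unadjusted p = 0.0094), and the closest arrays of the days stood at -0.40 and -0.49. The choice by small p favours days that lie apart here as well. CG31793 differed by 0.79 ± 0.29, CG1750 by 0.60 ± 0.27 and Pop2, a catalytic subunit of the complex that shortens poly(A) tails, by 0.54 ± 0.21. With the deposited signs the differences of CG31793 and Pop2 were -0.44 and -0.22, and those of COX4 and Men-b 0.12 and 0.17. All of these had a limma adjusted p of 1.

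Over the 20 P450 genes measured on both days, the median was -0.14 at day 14 and -0.10 at day 10, with 14 and 13 genes below 0, while over all 5187 these numbers were 2453 at day 14 and 2324 at day 10. None of the 20 had an unadjusted p under 0.05 for the difference, against 2.49% of everything tested. Glycolysis and glycogen genes had a median of -0.21 at day 14 and -0.15 at day 10 over 11 genes. Photoreceptor genes had a median of -0.16 at day 14 and 0.10 at day 10 over 9 genes, with 6 and 1 below 0, and trp had a difference of -0.57 ± 0.20. Antioxidant genes had a median of -0.16 at day 14 and 0.12 at day 10 over 6 genes, with 6 and 2 below 0, Gclm and Prx3, a mitochondrial peroxiredoxin, at an unadjusted p under 0.05. Neuropeptide genes had a median of -0.07 at day 14 and 0.12 at day 10 over 8 genes. Of these 8, 7 were lower at day 14, against 2658 of all 5187. These medians are descriptions with no test.

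**Figure D5:**
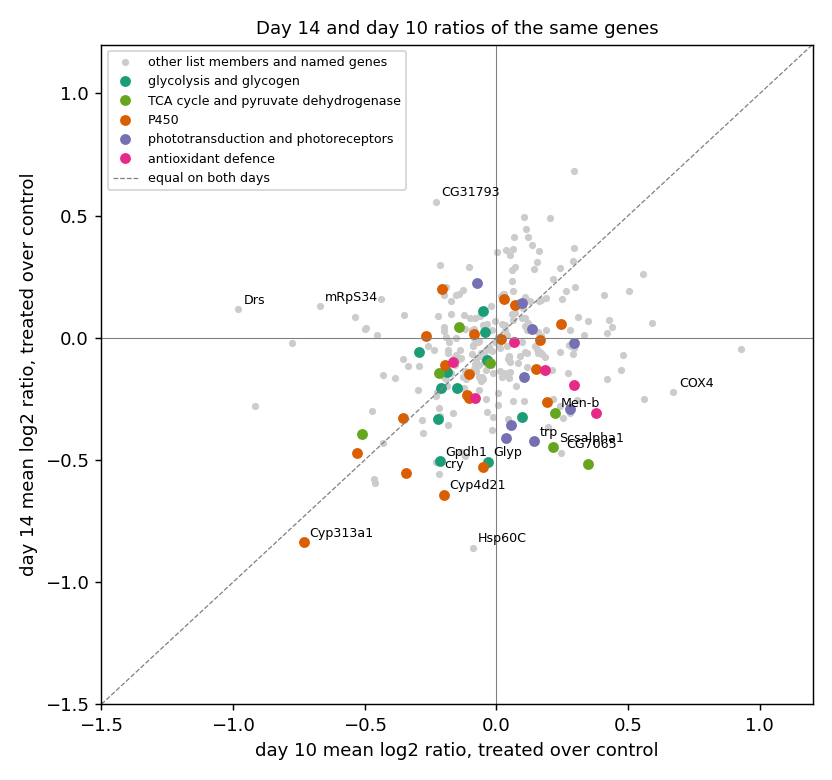
Mean log2 ratio of treated over control heads at day 14 (vertical axis) against day 10 (horizontal axis) for 293 named genes of the groups and contrasts above, with 5 groups coloured and the dashed line where both days are equal. Cyp313a1 lies close to the line, COX4 far below it and mRpS34 above it, and photoreceptor genes lie mostly below it.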

How the data were processed

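Pooled heads gave RNA that was amplified into dye-labelled cRNA (Cy3 or Cy5) for spotted cDNA arrays, per the labels' protocols. The deposited values are log2 ratios of both colours, normalized within each array by the authors with Acuity, and weak, saturated or irregular spots were blanked, per the labels. Signal over background was not examined, since scanner files were not used here.

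In the platform annotation, 15116 features carried 1 gene symbol, 102 carried several and 12430 carried no symbol. RefSeq gene identifiers matched 14894 of the 15116, and the remaining 222 were named as annotated. Averaging the features of each symbol gave 6793 genes. Unnamed features were tested singly, so that a pair of spots can count as 2. After turning the dye-swapped arrays and subtracting each array's median, a linear model with separate day means was fitted to all 8 arrays in limma 3.58.1 under R 4.3.3, wherever 3 or more of the 4 day 14 values were present. Benjamini-Hochberg adjustment ran over everything tested and 0.05 was the threshold. Errors are standard errors of this model, and the number of arrays limits their precision. An exact sign permutation test over 4 arrays could not go below p = 0.125 and was not used. The replicate numbers were not treated as pairs in the reported fit, and a replicate block was run as an alternative. Residuals of same-numbered arrays of both days correlated at 0.03, 0.37, 0.22 and 0.19. Replicates 2, 3 and 4 correlated best with their own number, so these values are no ground for leaving out the block. The model was tested on simulated data.

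The members and the 34 gene lists were chosen with earlier results of these data known, as were the tests and alternatives. Named genes were the 10 per direction with the smallest p among genes with 1 sign on all 4 day 14 arrays, the 2 with the smallest p and 1 sign in each list with at least 5 measured members, every measured GABA and calcium channel gene, and 4 per direction for the day difference with values on all 8 arrays. Other list members were named after their values were seen, to show the range of a list. Lists have counts and medians without a test. Replicates were separate pools of flies, per the labels. Alternatives changed the sign, centring, scale, filter, covariates, weights and arrays.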

Additional observations from a re-analysis of the deposited data

Results flagged for a closer look

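Of 68 results with values on all 4 day 14 arrays, 2 had an array far from the other 3; chance flags about 1 in 20 such sets. For CG1703, replicate 4 was at 0.0795, whereas the other 3 arrays lay between -0.213 and -0.187, a gap of 0.91 of the whole range. For CG7065, replicate 2 was at -0.214, whereas the other 3 arrays lay between -0.595 and -0.538, a gap of 0.852 of the whole range. Both genes were named for their difference between day 14 and day 10.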

How the results depend on the processing

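The count of genes and features past the adjusted threshold, 0 in the reported fit, became 3 with deposited signs, 1 with scaled arrays, 80 with array weights and 530 on the Cy3 arrays alone, and was 0 with each of the other alternatives and without each array. At an unadjusted p under 0.05 the 282 genes and features became 69 with arrays not centred, 590 with scaled arrays, 116 among named genes only, 442 with a dye term, 533 with the day 14 arrays alone, 1387 with array weights, 155 on the Cy5 arrays alone, 1540 on the Cy3 arrays alone, and 118 to 457 without single arrays (153, 457, 118 and 142 without replicates 1 to 4). For the difference between the days, the 129 became 433 with deposited signs, 225 and 219 with the versions of centring by position, 59 among named genes only, 737 with array weights and 69 to 164 without single arrays, of which 69 and 76 were without replicates 3 and 4. The replicate block gave 0 of 5459 past the adjusted threshold and 340 at an unadjusted p under 0.05, and moved 1 named gene, Gs1, across 0, to 0.069. Same-numbered arrays of the 2 days shared a number and the dye that labelled the treated RNA. Replicates 2, 3 and 4 correlated best with their own number (0.37, 0.22 and 0.19, against 0.29, 0.20 and 0.10 for the best other), and replicate 1 with another (0.06, against 0.03 for its own).

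With deposited signs the following means changed sign: CG10710 -0.014, CG1750 -0.087, CG31793 -0.091, CG4914 0.30, CG5174 0.091, CG7065 0.067, CG7966 0.17, COX4 0.25, COX7A -0.16, Cpr76Bd -0.029, Cyp4d21 0.0047, FASN3 -0.040, Gs1 0.12, GstE12 0.22, Hsp60C 0.76, Ilp2 0.10, Men-b 0.063, ND-20 0.083, Obp19d 0.13, Paf-AHalpha -0.23, Pop2 -0.075, Prosbeta7 0.011, RpL29 -0.053, RpL34a 0.047, Rpt4R 0.19, Scsalpha1 0.17, Snx17 -0.13, Spn -0.0069, TwdlF -0.018, cry 0.17, eIF3b 0.45, mRpS31 -0.017, nwk 0.012, shi 0.095, sm -0.035, stj -0.033 and trp 0.22. Day differences that did were CG31793 -0.44, CG7065 0.33, COX4 0.12, Men-b 0.17 and Pop2 -0.22. Centring by position gave the other sign for Cpr76Bd -0.025, Gs1 0.042, mRpS34 -0.14, speck 0.019 and stj -0.0031, and its version with at least 8 values per run for Cpr76Bd -0.025, Pop2 -6.3e-05 and stj -0.0031. Uncentred arrays did so for Gs1 0.048 and stj -0.046, array weights for Gad1 -0.033 and mRpS34 -0.11, Cy5 arrays alone for COX4 0.025 and Pop2 -0.038, and Cy3 arrays alone for Gad1 -0.022 and mRpS34 -0.18. Leaving out single arrays moved Gad1 from -0.066 to 0.076, Pop2 from -0.029 to 0.13, stj from -0.052 to 0.098 and mRpS34 from -0.11 to 0.30. In the other direction, 36 values of named genes passed the threshold under array weights, on the Cy3 arrays alone or with scaled arrays. The causes were not tested, and the number of arrays limits all of these values.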
